A study of Mus musculus with 10 samples.

Results

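The levels of 7 lncRNA genes in nuclei of adult mouse neurons are described here, namely *Snhg11*, *Mir124a-1hg*, *Miat*, *Malat1*, *Neat1*, *Rmst* and *Pantr1*, of 54532 genes in the count files. They were listed as abundant or nucleus-retained lncRNAs outside imprinted loci, by a rule that uses no difference between groups, and all 7 passed the filter on low counts. RNA was taken from brain nuclei of C57BL/6J mice that had been sorted for NeuN, the protein of *Rbfox3* and a label of neuronal nuclei. The 10 libraries comprise 5 controls, 3 *Mphosph8* knockouts (*Mphosph8*Δ/Δn) and 2 *Morc2a* knockouts (*Morc2a*Δ/Δn). All mice were homozygous for a floxed allele. Control replicates 1 to 3 and the *Mphosph8* knockouts carried floxed *Mphosph8*, and control replicates 4 and 5 and the *Morc2a* knockouts carried floxed *Morc2a*. The knockouts also carried *Nestin*-Cre, a transgene whose promoter is active in neural progenitors before birth, and no control did, so that the presence of Cre and the loss of the gene cannot be told apart. MPP8, the product of *Mphosph8*, and MORC2A act with the HUSH complex, which keeps chromatin marked by H3K9me3 silent, and the comparisons ask whether their loss alters RNA levels in neurons. A deposited value is the number of reads on a gene, and a level is given as CPM, the count scaled to a common depth by library sizes that were adjusted with TMM.

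An lncRNA is a long transcript without a recognized protein product. Many mRNAs leave the nucleus soon after processing, whereas some lncRNAs stay and gather in nuclear bodies, so that sorted nuclei are a natural place to measure them. *Malat1* collects in nuclear speckles, which store splicing factors. *Neat1* is the scaffold of paraspeckles, bodies that hold RNA-binding proteins and form around its long isoform. *Miat*, also called Gomafu, forms a nuclear compartment of its own in neurons and binds splicing factors. *Snhg11* belongs to the genes whose introns or exons hold snoRNAs, and *Mir124a-1hg* is the host transcript of miR-124, the abundant microRNA of neurons. *Rmst* is known for binding the transcription factor SOX2 during the making of neurons, and *Pantr1* lies beside *Pou3f3*, which encodes a POU-domain factor of the developing cortex.

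Total counts per library were between 6686038 and 10764555. *Rbfox3* had between 149.8 and 303.6 CPM, and the summed level of 8 neuronal markers was between 3555 and 5213 CPM. Markers of other cells were present at lower levels, between 819 and 1164 CPM for 10 astrocyte genes, 573 and 1007 CPM for 10 oligodendrocyte genes, 43.0 and 91.7 CPM for 9 microglial genes and 8.19 and 30.8 CPM for 8 endothelial genes, with none of these genes at 0 in all libraries. Cre removes exon 4 of the targeted gene, which by the study's design puts the mRNA out of frame and exposes it to decay. *Mphosph8* had 32.2, 33.4 and 37.1 CPM in the controls of its line and 48.9 and 41.5 CPM in the other controls, against 37.1, 35.9 and 18.8 CPM in the *Mphosph8* knockout (log2 fold change -0.34, edgeR adjusted p = 0.967). Of these knockout libraries, replicate 3 alone lay below every control. *Morc2a* had 162.7, 138.7, 138.1, 121.5 and 140.2 CPM in control replicates 1 to 5 and 214.8 and 222.5 CPM in the *Morc2a* knockout, above every control (log2 fold change 0.64, edgeR adjusted p = 0.0916). The whole-gene counts therefore do not show the loss in 2 of 3 *Mphosph8* and in either of the *Morc2a* libraries. Counts of exon 4 alone were not analysed here. The paper reports the loss of each gene by qRT-PCR and immunoblots of whole brains. It also measured both mRNAs by qRT-PCR in sorted NeuN-positive nuclei. Throughout, a knockout is a library labelled as one, directions included. *Morc2a* knockout replicate 1 stood apart by 216863 counts on *Pask*, 2.26% of its total, against 120 to 328 counts in the other 9 libraries.

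The libraries were made from poly(A) RNA, and the 3′ ends of the transcripts bear on which of them such a library can hold. *Malat1* and the long isoform of *Neat1* are known to be cut by RNase P at an internal site and to end in a triple helix in place of an added poly(A) tail. The last 60 bases of annotated transcripts, read from GENCODE M21 on GRCm38, are shown for the nuclear body RNAs and a miRNA host, with the poly(A) signal AATAAA, or its variant ATTAAA, in capitals. In the annotation, *Malat1* ends at chr19:5795690-5795749, the long *Neat1* isoform (20771 bases) at chr19:5824708-5824767, the short one (3004 bases) at chr19:5842307-5842366 and *Miat* at chr5:112213228-112213287, all on the minus strand, and *Mir124a-1hg* at chr14:64593902-64593961 on the plus strand. The place of the RNase P cut relative to these annotated ends was not examined.
Malat1 end: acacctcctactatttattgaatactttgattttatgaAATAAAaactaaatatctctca
Neat1 long isoform end: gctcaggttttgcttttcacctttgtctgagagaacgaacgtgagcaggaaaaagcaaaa
Neat1 short isoform end: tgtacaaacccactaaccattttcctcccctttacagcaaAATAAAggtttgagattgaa
Miat end: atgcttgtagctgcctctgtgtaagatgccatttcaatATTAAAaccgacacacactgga
Mir124a-1hg end: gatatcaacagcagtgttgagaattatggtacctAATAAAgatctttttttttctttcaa

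The long *Neat1* isoform held neither signal in its last 50 bases, and each of the other 4 ends held one, followed by 14 to 20 bases up to the annotated end. Of 134529 annotated transcripts of at least 200 bases, 35.4% held one of the 2 hexamers in that window on the transcript's strand. An annotated transcript each of *Snhg11*, *Rmst* and *Pantr1* that was searched held one as well. The part of poly(A) selection in the levels of *Malat1* and *Neat1* was not tested.

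*Miat* is known for repeats of ACTAAC, a run of letters that resembles the branch point sequence read by splicing factor SF1. A transcript of 9163 bases held 11 copies. Of 7040 annotated transcripts of at least 5000 bases, 0.185% held as many or more, and the median was 1 copy. The densest stretch, chr5:112217314-112217454 on the minus strand, is bases 4937 to 5077 of that transcript, held 4 copies and is shown with the repeats in capitals, searched on the transcript's strand only.
Miat repeats: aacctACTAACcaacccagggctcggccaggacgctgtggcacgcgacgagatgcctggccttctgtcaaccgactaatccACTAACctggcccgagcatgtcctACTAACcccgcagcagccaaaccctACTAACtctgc

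*Rmst* spans the miRNA genes *Mir135a-2* and *Mir1251*. The mature products from RefSeq (GRCm38) are shown with the seed, bases 2 to 8, in capitals, since the host's level is measured here and the products are not. The 4 arms share no seed.
mmu-miR-135a-5p: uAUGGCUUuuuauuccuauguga
mmu-miR-135a-2-3p: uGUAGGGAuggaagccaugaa
mmu-miR-1251-5p: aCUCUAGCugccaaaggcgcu
mmu-miR-1251-3p: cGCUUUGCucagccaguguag

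The 7 genes covered an abundance range from the top of all genes to the middle. Per kilobase of all annotated exons of a gene, the mean level over the 10 libraries was 1338 CPM for *Snhg11*, 200.5 CPM for *Mir124a-1hg*, 71.7 CPM for *Miat*, 35.1 CPM for *Malat1*, 6.03 CPM for *Pantr1*, 4.86 CPM for *Rmst* and 1.05 CPM for *Neat1*. Neighbours in this order had ranges over the 10 libraries that did not overlap, except *Pantr1* and *Rmst*, for which the order held in 8 of 10 libraries. The length includes bases shared with other genes, 38.8% for *Rmst*, 30.4% for *Miat* and 0% for *Pantr1*. How reads on shared bases were counted is not given in the sources used here. Of 21 genes that share exonic bases with one of the 7, 19 had 0 counts in every library. Reads on shared bases thus appear not to have been counted for both genes, while the length holds these bases. The level per kilobase may therefore be too low for *Rmst* and *Miat*, and the order of *Pantr1* and *Rmst* may depend on it. By CPM per exonic kilobase the 7 genes ranked 1, 65, 468, 1494, 8267, 9141 and 14559 among all genes, in the same order. The length used for *Neat1*, 20771 bases, is that of its long isoform, and its short isoform has 3004 bases. The last place of *Neat1* and its rank per kilobase depend on that choice of length. Among 9681 genes, those of a long noncoding biotype and *Snhg11*, which GENCODE M21 lists as protein-coding, the ranks per kilobase were 1, 4, 15, 43, 352, 442 and 1283. By CPM without division by length the ranks among all genes were 1 for *Snhg11*, 32 for *Mir124a-1hg*, 84 for *Miat*, 671 for *Malat1*, 6771 for *Rmst*, 7873 for *Pantr1* and 8561 for *Neat1*, so that *Rmst* and *Pantr1* changed places. Together the 7 genes took between 1.11 and 1.72% of the counts of a library.

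**Figure D1:**
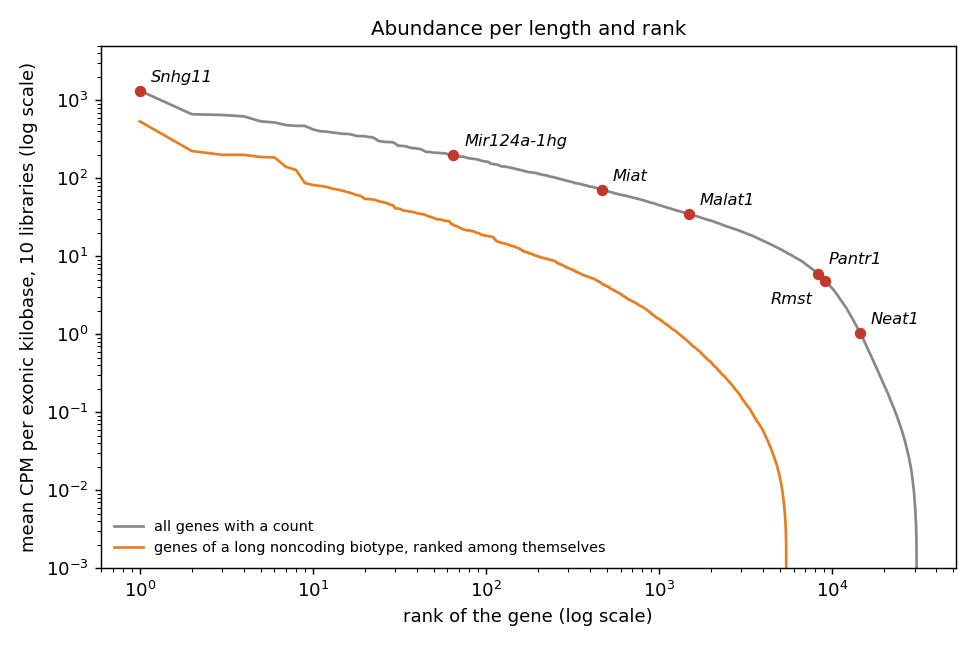
Mean CPM per exonic kilobase over the 10 libraries (vertical axis, log scale) against rank (horizontal axis, log scale) for all genes with a count (grey) and for genes of a long noncoding biotype ranked among themselves (orange). Red points mark the 7 lncRNAs at their rank among all genes, from 1 for *Snhg11* to 14559 for *Neat1*, taken at the length of its long isoform.

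Of the nuclear body RNAs, *Malat1* (ENSMUSG00000092341, chr19:5795690-5802672, minus strand, 1 exon of 6983 bases) had 245.8, 273.6 and 257.7 CPM in the controls of the *Mphosph8* line and 230.2 and 226.8 CPM in those of the *Morc2a* line. The *Mphosph8* knockout libraries held 211.4, 233.5 and 202.3 CPM and the *Morc2a* knockout libraries 291.0 and 276.8 CPM. Both *Morc2a* knockout libraries lay above every control, and every *Mphosph8* knockout library lay below the 3 controls of its own line, while replicate 2 lay above both controls of the other line. Mean levels were 246.8 ± 19.5 CPM (SD, n = 5) in the controls, 215.7 ± 16.04 CPM (SD, n = 3) in the *Mphosph8* knockout and 283.9 ± 10.1 CPM (SD, n = 2) in the *Morc2a* knockout. The log2 fold change against all controls was -0.19 (standard error 0.11, edgeR adjusted p = 0.919) in the *Mphosph8* knockout and 0.20 (standard error 0.12, edgeR adjusted p = 0.604) in the *Morc2a* knockout. *Malat1* is commonly among the RNAs with most reads in nuclei, and here the mean level of *Snhg11* per exonic kilobase was 38.2 times that of *Malat1*.

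*Malat1* was the member with the smallest p in the test of whether the 2 knockouts, each set against the controls of its own line, had different effects. Against its own line the log2 fold change was -0.26 (95% interval -0.50 to -0.03) for *Mphosph8* and 0.31 (0.02 to 0.61) for *Morc2a*, with edgeR adjusted p of 0.866 and 0.520. The difference between these effects was -0.58 (95% interval -0.95 to -0.20), with an edgeR p of 0.00491 that became 0.419 after adjustment over the 18573 genes tested. Part of it is the gap between the controls, a log2 difference of -0.18 for the *Morc2a* line over the *Mphosph8* line (edgeR adjusted p = 0.711). The difference between the effects was not called, and neither was any other gene (0%) in this test. At an unadjusted p below 0.05 there were 1476 genes. *Malat1* and *Miat* were the only members of the list among these. DESeq2 called 50 genes, and no member of the list was called.

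*Neat1* (ENSMUSG00000092274, chr19:5824708-5845478, minus strand, 1 merged exon of 20771 bases) had 75 to 435 counts per library. Control replicates 1 to 5 had 13.4, 21.05, 19.3, 17.3 and 11.1 CPM, the *Mphosph8* knockout libraries 16.4, 42.0 and 20.7 CPM, and the *Morc2a* knockout libraries 30.4 and 26.1 CPM. *Mphosph8* knockout replicate 2 was the highest of all, while the other 2 of its group lay within the control range, and both *Morc2a* knockout libraries lay above every control. The log2 fold change was 0.68 (standard error 0.29, edgeR adjusted p = 0.839) in the *Mphosph8* knockout and 0.78 (standard error 0.33, edgeR adjusted p = 0.400) in the *Morc2a* knockout, the largest of the 7 genes in both comparisons. Without *Mphosph8* knockout replicate 2 the former was 0.18. The 95% intervals of the fold were 1.05 to 2.45 and 1.06 to 2.77, so that a 2-fold difference lay within both. The count covers both isoforms, whose reads are not told apart in the short isoform's stretch. *Neat1* was also the member with the widest spread in control, an SD of 0.38 on the log2 CPM scale, against a median of 0.23 over 10832 tested genes with a mean of at least 10 CPM.

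*Miat* (ENSMUSG00000097767, chr5:112213228-112229395, minus strand, 9293 exonic bases) had the highest level per kilobase of the nuclear body RNAs. Control replicates 1 to 5 had 805.9, 503.2, 637.7, 641.6 and 625.9 CPM, the *Mphosph8* knockout libraries 576.3, 550.9 and 616.3 CPM, and the *Morc2a* knockout libraries 724.1 and 982.3 CPM. *Morc2a* knockout replicate 2 was the highest library, replicate 1 lay below control replicate 1, and the *Mphosph8* knockout libraries lay inside the control range. The log2 fold change was -0.15 (standard error 0.13, edgeR adjusted p = 0.987) in the *Mphosph8* knockout and 0.41 (standard error 0.15, edgeR adjusted p = 0.327) in the *Morc2a* knockout. Against the own-line controls the latter was 0.43, and both *Morc2a* knockout libraries lay above both of these controls. The difference between the knockout effects was -0.59 (95% interval -1.08 to -0.09, edgeR adjusted p = 0.527). Of the exonic bases of *Miat*, 30.4% are shared with other genes, above all 2260 bases with *Gm26953* on the opposite strand. *Gm26953* had 0 to 6 counts in 7 libraries, 59 and 29 counts in control replicates 4 and 5, and 87 counts in *Morc2a* knockout replicate 1, against at least 4220 on *Miat*, and the strand setting of the counting is not given in the sources used here.

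Proteins that work in these bodies were described by lists. Of 15 tested paraspeckle proteins, 0 were called in either knockout, with 3 of 15 log2 fold changes positive for *Mphosph8* (median -0.09) and 9 of 15 for *Morc2a* (median 0.05), beside medians of -0.01 and -0.01 over all genes tested. *Hnrnph1*, which encodes an RNA-binding protein, had 524 ± 58.7 CPM (SD, n = 5) in the controls, 483 ± 79.8 CPM (SD, n = 3) in the *Mphosph8* knockout and 507 ± 71.2 CPM (SD, n = 2) in the *Morc2a* knockout. *Tardbp*, which encodes TDP-43, had 320 ± 16.9, 319 ± 33.7 and 382 ± 75.9 CPM in the same groups. Of 16 tested speckle and splicing proteins, 0 were called, with medians of -0.05 (7 of 16 positive) and 0.12 (13 of 16 positive). *Sf3b1*, a part of the U2 snRNP, had 861 ± 114 CPM in control, 756 ± 49.7 CPM in the *Mphosph8* knockout and 932 ± 149 CPM in the *Morc2a* knockout. The levels of both lists thus overlapped between groups, with summed ranges of 2150 to 2519 CPM in control, 2103 to 2340 CPM in the *Mphosph8* knockout and 2234 to 2668 CPM in the *Morc2a* knockout for the paraspeckle proteins.

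Of the host transcripts, *Snhg11* (ENSMUSG00000044349, chr2:158375638-158386145, plus strand, 8521 exonic bases) had the highest count of all genes in 8 of 10 libraries. The exceptions were control replicate 1, where the imprinted lncRNA *Meg3* had 97516 counts and *Snhg11* 93714, and *Morc2a* knockout replicate 1, where *Pask* was first. Control replicates 1 to 5 had 11729.6, 9504, 9997, 10424.5 and 12718 CPM, the *Mphosph8* knockout libraries 11323, 10375 and 11129 CPM, and the *Morc2a* knockout libraries 12179 and 14646 CPM. *Snhg11* alone took between 0.943 and 1.46% of all counts. The *Mphosph8* knockout libraries lay inside the control range, *Morc2a* knockout replicate 2 was the highest of all, and replicate 1 lay below control replicate 5. The log2 fold change was 0.01 (95% interval -0.18 to 0.20, edgeR adjusted p = 0.999) in the *Mphosph8* knockout, a fold between 0.882 and 1.15. It was 0.30 (0.09 to 0.52, edgeR adjusted p = 0.278) in the *Morc2a* knockout, a fold between 1.06 and 1.43.

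The promoter of *Snhg11*, 250 bases before to 50 after the start in RefSeq on GRCm38 (chr2:158375463-158375762, plus strand), is shown with that of *Malat1* (chr19:5802623-5802922, minus strand), since the levels of these genes lie far apart. RefSeq promoters were found for 3 of the 7 genes, the other being *Miat*. Capitals mark CG dinucleotides. *Snhg11* held 21 and *Malat1* 10, and 24.8% and 43.5% of 32851 promoters of this length held as many or more. The TATA box motif TATAAA was in neither window on either strand and in 13.6% of all promoters. The same held for the CAAT box motif CCAAT (37.4%) and the GC box motif GGGCGG (35.7%), whereas the CREB core motif TGACG was in that of *Malat1* and in 20.8% of all.
Snhg11 promoter: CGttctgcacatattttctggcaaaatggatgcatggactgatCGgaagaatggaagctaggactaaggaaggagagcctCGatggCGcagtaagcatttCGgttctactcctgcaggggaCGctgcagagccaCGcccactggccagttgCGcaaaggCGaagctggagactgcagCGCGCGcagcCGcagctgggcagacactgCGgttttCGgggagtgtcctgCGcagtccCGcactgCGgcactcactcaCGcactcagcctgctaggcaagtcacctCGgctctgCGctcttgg
Malat1 promoter: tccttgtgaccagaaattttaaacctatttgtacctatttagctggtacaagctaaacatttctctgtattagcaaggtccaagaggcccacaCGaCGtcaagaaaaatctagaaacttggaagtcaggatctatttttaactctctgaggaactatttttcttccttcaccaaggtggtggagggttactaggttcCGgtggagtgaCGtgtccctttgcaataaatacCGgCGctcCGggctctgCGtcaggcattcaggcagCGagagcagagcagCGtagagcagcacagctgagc

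*Mir124a-1hg* (ENSMUSG00000097545, chr14:64587331-64593961, plus strand, 4804 exonic bases) was the steadiest of the 7 genes in control, with an SD of 0.09 on the log2 CPM scale. Control replicates 1 to 5 had 974.0, 854.2, 899.9, 994.8 and 975.3 CPM, the *Mphosph8* knockout libraries 821.9, 994.8 and 870.7 CPM, and the *Morc2a* knockout libraries 1017 and 1228 CPM. Both *Morc2a* knockout libraries lay above every control, the lower one by little, and both controls of the *Morc2a* line lay above those of the *Mphosph8* line. The log2 fold change was -0.07 (standard error 0.10, edgeR adjusted p = 0.997) in the *Mphosph8* knockout and 0.26 (standard error 0.11, edgeR adjusted p = 0.423) in the *Morc2a* knockout. The genes of miR-124 and of a second miRNA within it, *Mir124a-1* and *Mir3078*, had 0 counts in every library. They share 85 and 87 bases with exons of the host on its strand, and how reads on shared bases were counted is not given. The counts of 0 therefore say nothing of the mature miRNAs.

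Genes of related kinds were again described by lists. *Mir124-2hg*, the host of another miR-124 copy, had 422 ± 84.1 CPM (SD, n = 5) in the controls, 408 ± 40.3 CPM (SD, n = 3) in the *Mphosph8* knockout and 411 ± 12.1 CPM (SD, n = 2) in the *Morc2a* knockout. Of 14 tested genes of the miR-124 pathway, 0 were called in either knockout, with medians of -0.01 and 0.01. *Ptbp2*, the neuronal splicing repressor, had a log2 fold change of 0.07 and 0.29 (edgeR adjusted p = 0.997 and 0.651), and *Dicer1*, which cuts miRNA precursors, -0.02 and 0.29 (adjusted p = 0.999 and 0.455). The call in this list was between the floxed lines: *Actl6b*, a neuronal chromatin remodeller subunit, was lower in the controls of the *Morc2a* line (log2 fold change -1.73, edgeR adjusted p = 0.00789). Of 14 tested snoRNA hosts and growth-linked lncRNAs, 0 were called, with 7 of 14 positive in the *Mphosph8* knockout (median 0.00) and 13 of 14 positive in the *Morc2a* knockout (median 0.28), against medians of -0.01 and -0.01 over all genes tested. Between the controls of the 2 lines, higher in the *Morc2a* line, 10 of the 14 were positive as well (median 0.21). *Gas5*, a host of many snoRNAs, had 492 ± 50.1 CPM in control, 586 ± 36.0 CPM in the *Mphosph8* knockout and 538 ± 237 CPM in the *Morc2a* knockout, where the 2 libraries lay far apart. Of 20 tested other lncRNAs of neurons, 0 were called, with 8 positive in the *Mphosph8* knockout (median -0.02) and 11 in the *Morc2a* knockout (median 0.07). Of these, *1700020I14Rik* had 191 ± 17.2 CPM in control and 123 ± 5.06 CPM in the *Morc2a* knockout, a log2 fold change of -0.64 that missed the threshold (edgeR adjusted p = 0.0871). *Firre*, a nuclear lncRNA of the X chromosome, had 174 ± 18.3 and 235 ± 26.9 CPM in the same groups (log2 fold change 0.43, edgeR adjusted p = 0.254).

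The lncRNAs of neural development were low and varied more. *Rmst* (ENSMUSG00000112117, chr10:92071037-92165170, minus strand, 7423 exonic bases) had 31.7, 27.2 and 26.5 CPM in the controls of the *Mphosph8* line and 29.3 and 45.8 CPM in those of the *Morc2a* line. The *Mphosph8* knockout libraries had 40.4, 37.8 and 52.0 CPM and the *Morc2a* knockout libraries 33.3 and 36.9 CPM. All 3 *Mphosph8* knockout libraries lay above the 3 controls of their own line, but control replicate 5 of the other line lay inside their range. The log2 fold change in the *Mphosph8* knockout was 0.44 (standard error 0.21, edgeR adjusted p = 0.880) against all controls and 0.61 (standard error 0.22, edgeR adjusted p = 0.789) against its own line. In the *Morc2a* knockout it was 0.13 (standard error 0.24, edgeR adjusted p = 0.905) against all controls and -0.09 against its own line. *Rmst* has 38.8% of its exonic bases in common with other genes, and counts were 253 to 503 per library. The genes in its span with most counts were *Gm27544*, a small transcript at its 3′ side with 33 to 85, and *Mir135a-2* with 6 to 17.

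*Pantr1* (ENSMUSG00000060424, chr1:42590782-42694842, minus strand, 4458 exonic bases) shares no exonic base with another gene. Control replicates 1 to 3 had 22.8, 22.9 and 24.7 CPM and control replicates 4 and 5 had 38.4 and 28.03 CPM. The *Mphosph8* knockout libraries had 16.9, 27.8 and 22.2 CPM and the *Morc2a* knockout libraries 37.9 and 27.0 CPM. Each line had a range of its own among the controls: both controls of the *Morc2a* line lay above the 3 of the *Mphosph8* line, a log2 difference of 0.51 (standard error 0.27) that was not called (edgeR adjusted p = 0.609). The knockout effects were -0.29 (standard error 0.24, edgeR adjusted p = 0.984) and 0.24 (standard error 0.27, edgeR adjusted p = 0.816) against all controls, and -0.07 and -0.04 against the own lines. *Pou3f3* starts 925 bases away on the opposite strand. It had 23.3 ± 2.97 CPM (SD, n = 5) in control, 18.3, 33.9 and 36.0 CPM in the *Mphosph8* knockout and 22.4 and 19.5 CPM in the *Morc2a* knockout, with log2 fold changes of 0.33 and -0.16 (edgeR adjusted p = 0.967 and 0.901).

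**Figure D2:**
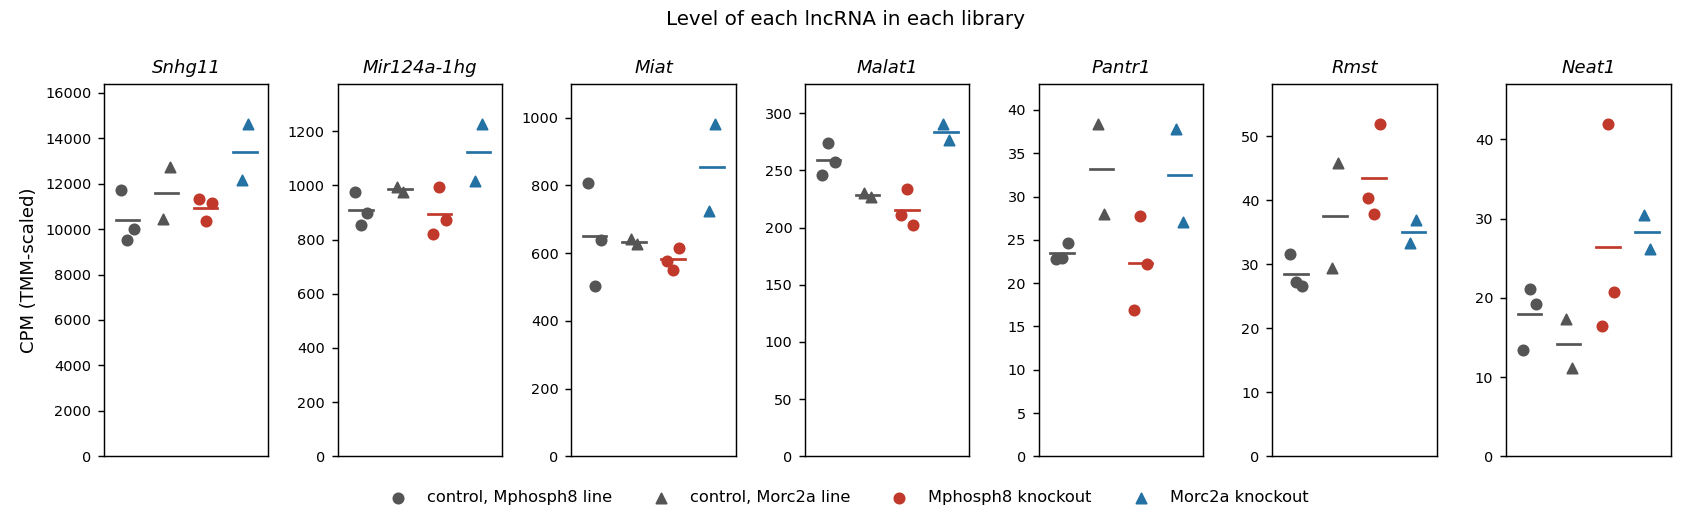
CPM of the 7 lncRNAs (vertical axes from 0, 1 scale per gene) in each library, grouped from left to right as controls of the *Mphosph8* line, controls of the *Morc2a* line, *Mphosph8* knockout and *Morc2a* knockout; bars are group means. *Malat1* in the *Morc2a* knockout (276.8 and 291.0 CPM) lies above all controls, and 1 *Mphosph8* knockout library sets *Neat1* apart (42.0 CPM).

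Across the 7 genes, 0 were called in either knockout, where a call took a fold above 2 and an adjusted p below 0.05. The edgeR test called 18 of 18573 genes in the *Mphosph8* knockout (0.0969%) and 11 in the *Morc2a* knockout (0.0592%), and 1053 and 1991 genes had an unadjusted p below 0.05. DESeq2 and limma-voom likewise called 0 of the 7. At an unadjusted p below 0.05 there were 2 of 7 in the *Mphosph8* knockout, *Neat1* and *Rmst*, and 4 of 7 in the *Morc2a* knockout, *Snhg11*, *Mir124a-1hg*, *Miat* and *Neat1*. Log2 fold changes were positive for 3 of 7 genes in the *Mphosph8* knockout (median -0.07) and for 7 of 7 in the *Morc2a* knockout (median 0.26), and both comparisons share the control libraries. Over the 2163 tested genes of a long noncoding biotype the medians were 0.02 and 0.08, with 1 and 2 genes called. Between the floxed lines 24 genes were called (0.129%) and 1711 had an unadjusted p below 0.05, with 0 of the 7 genes in either count, by DESeq2 and limma-voom also 0 called.

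Groups that did not overlap were counted in the same way. In the *Mphosph8* knockout 0 of the 7 genes lay wholly above or below all controls, against 2.31% and 2.26% of all genes tested. In the *Morc2a* knockout *Mir124a-1hg*, *Malat1* and *Neat1* lay above all controls, where 7.59% of genes did, and 0 lay below, where 7.80% did. Against own-line controls, *Rmst* lay above in the *Mphosph8* knockout (6.13% of genes) and *Malat1* below (6.61%), and in the *Morc2a* knockout *Mir124a-1hg*, *Miat*, *Malat1* and *Neat1* lay above (18.1%) and 0 below (17.9%). Between the lines, *Mir124a-1hg* and *Pantr1* lay higher in the *Morc2a* line (14.1%) and *Malat1* lower (15.1%).

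**Figure D3:**
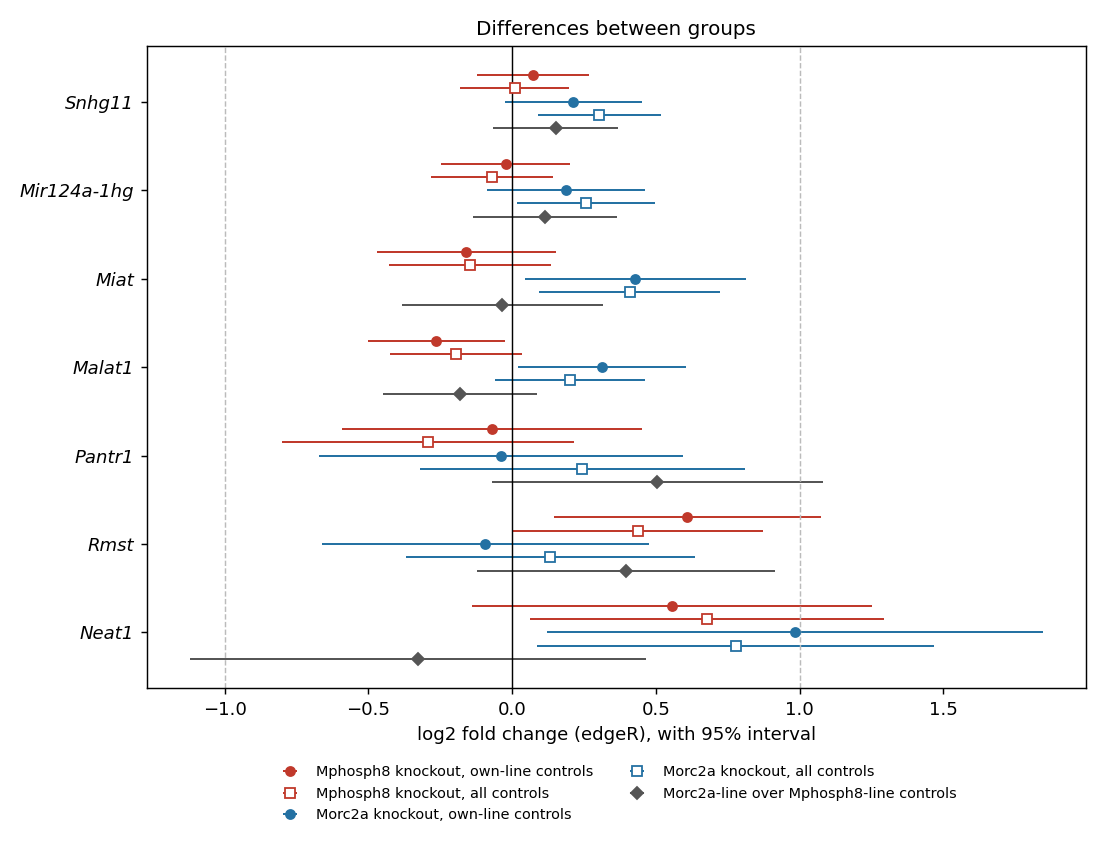
Log2 fold change (horizontal axis) with its 95% interval from edgeR for the 7 lncRNAs, for the *Mphosph8* knockout (red) and *Morc2a* knockout (blue) against the controls of the own line (filled circles) or all 5 controls (open squares), and between the controls of both lines (grey diamonds). Dashed lines mark a 2-fold change. No point lies beyond them, and for *Malat1* the own-line intervals lie on opposite sides of 0.

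For 3 of the 7 genes 1 library stood out among the *Morc2a* knockouts. Replicate 2 was the highest of the 10 libraries for *Snhg11*, *Mir124a-1hg* and *Miat*, at 0.43, 0.39 and 0.61 above the control mean on the log2 scale. The same library was the lowest of the 10 for the summed neuronal markers (3555 CPM, against 4525 to 5213 CPM in control) and for 24 ribosomal protein genes (1450 CPM, against 1720 to 2255 CPM in control), whose mRNAs are mostly cytoplasmic. Replicate 1 had 4179 and 1786 CPM for these sums, and was the higher of both for *Malat1*, *Neat1* and *Pantr1*. The neuronal markers did not move alike. *Snap25* and *Syt1*, the most abundant, had log2 fold changes of -0.475 and -0.491 in the *Morc2a* knockout. Of the 8 markers, 2 were positive there, *Map2* (0.328) and the sorting marker gene *Rbfox3* (0.191). Of the 24 ribosomal protein genes, 5 had positive log2 fold changes in the *Morc2a* knockout (median -0.237). Between the controls, *Morc2a* line over *Mphosph8* line, 20 of the 24 were positive (median 0.149). Summed oligodendrocyte markers were 698 and 573 CPM in the 2 *Morc2a* knockout libraries, against 773 to 1004 CPM in control, and endothelial markers 8.19 and 11.3 CPM, against 17.02 to 29.5 CPM. The endothelial sum was mostly *Itm2a*, with a mean of 16.4 CPM in control and 5.24 CPM in the *Morc2a* knockout. In that knockout 2 of 6 tested endothelial and 2 of 10 oligodendrocyte markers had positive log2 fold changes. In the *Mphosph8* knockout libraries, 8 markers of striatal neurons summed to between 835 and 1074 CPM, against 1225 to 1289 CPM in control, and 14 markers of midbrain and hindbrain neurons to between 226.8 and 236.5 CPM, against 176.4 to 221.3 CPM. Log2 fold changes were positive for 0 of 7 tested striatal markers and for 8 of 13 tested midbrain and hindbrain markers. *Slc17a6*, the most abundant of the latter, had means of 107 CPM in control and 130 CPM in the *Mphosph8* knockout. Markers of cerebellar granule cells summed to 329.1, 499 and 130.3 CPM in *Mphosph8* knockout replicates 1 to 3, against 82.7 to 120.9 CPM in their own-line controls. Control replicates 4 and 5 had 567.8 and 95.2 CPM, and the *Morc2a* knockouts 83.0 and 81.3 CPM. *Mphosph8* knockout replicate 2 is the library with the highest *Neat1*. Control replicate 4, with the highest granule cell sum, had 17.3 CPM of *Neat1*, and the *Morc2a* knockouts had 30.4 and 26.1 CPM. A list of 10 activity-induced genes summed to 995 to 1502 CPM in the controls of the *Mphosph8* line, 512 to 735 CPM in those of the *Morc2a* line, 857, 758 and 498 CPM in the *Mphosph8* knockout and 666 and 769 CPM in the *Morc2a* knockout. By this sum the *Mphosph8* knockout libraries lay below all own-line controls, beside the own-line differences in *Malat1* and *Rmst*, and the lines lay apart, beside those in *Malat1* and *Pantr1*. The *Morc2a* knockout libraries lay below the controls of the *Mphosph8* line by this sum too, while their *Malat1* lay above every control. The part of these sums in the lncRNA levels was not tested, and in bulk RNA fewer nuclei of a type and less RNA per nucleus cannot be told apart. Without *Morc2a* knockout replicate 2 the log2 fold changes in the *Morc2a* knockout were 0.16 for *Snhg11*, 0.11 for *Mir124a-1hg*, 0.17 for *Miat* and 0.05 for *Rmst*, and were larger for *Malat1* (0.23), *Neat1* (0.88) and *Pantr1* (0.46).

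**Figure D4:**
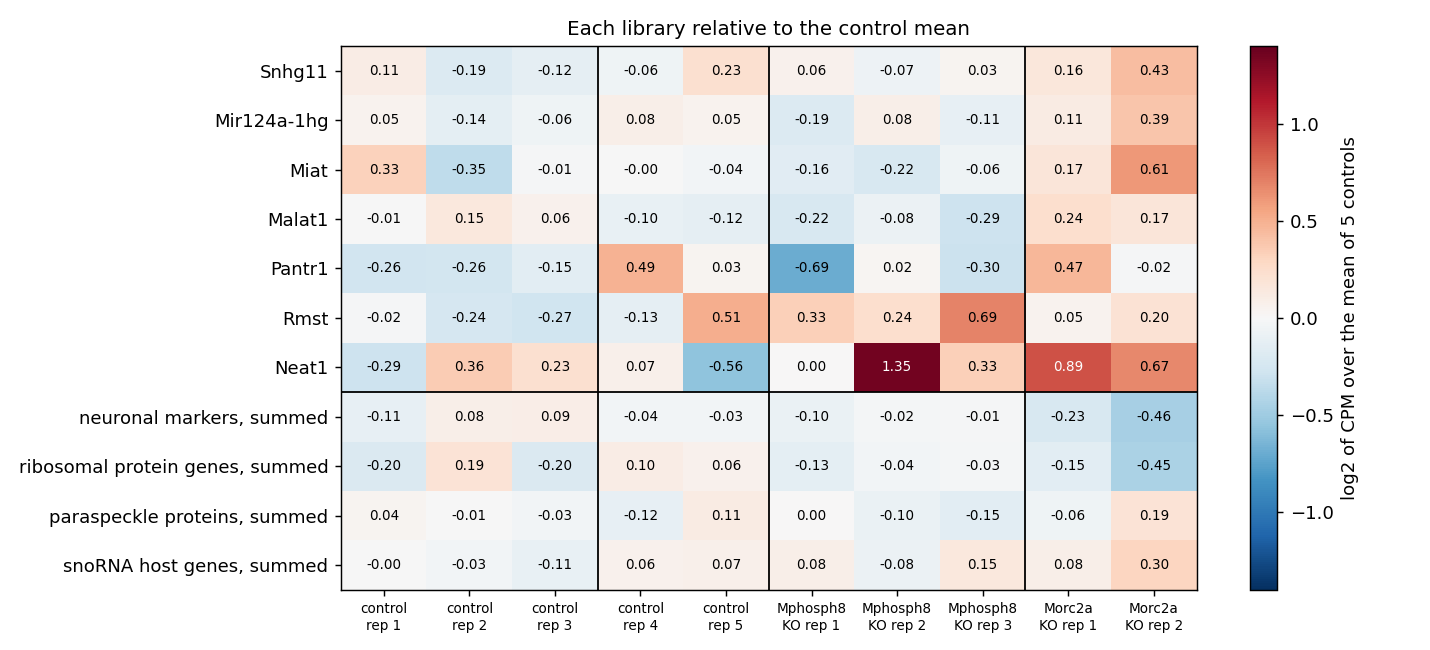
Log2 ratio of the CPM in each library to the mean of the 5 controls, for the 7 lncRNAs (upper rows) and 4 summed gene lists (lower rows), red above and blue below the control mean. Black lines separate the controls of both lines and the knockouts. The last column, *Morc2a* knockout replicate 2, is at 0.43 for *Snhg11* and -0.46 for the sum of 8 neuronal markers, of which 2 had a positive log2 fold change in the *Morc2a* knockout.

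The genes whose log2 CPM followed each lncRNA most closely over the 10 libraries were taken from the 10832 tested genes with a mean of at least 10 CPM. They share the libraries and the scaling with the lncRNA, so that r is a description only. For *Snhg11* these included *Srsf11*, a splicing factor gene, and *Ahi1* (Pearson's r 0.98 and 0.97), for *Mir124a-1hg* *Zfyve27*, *Pde9a* and *Repin1* (0.98, 0.97 and 0.94), and for *Miat* *Agrn*, *1600012H06Rik* and *Csrnp2* (0.96, 0.95 and 0.95). For *Malat1* they included *Zfp260*, *Surf2* and *Wbp1l* (0.93, 0.92 and 0.92), for *Neat1* *Tecpr1*, *Tbcc* and *Ctbp1* (0.91, 0.89 and 0.88), for *Rmst* *Akr1b10*, *Ik* and *A930017M01Rik* (0.97, 0.96 and 0.96), and for *Pantr1* *Tesc* and *Chid1* (0.91 and 0.90). No member was among the closest 3 of another.

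Of the nearest protein-coding genes on either side, those that passed the filter on low counts were not called in any comparison, and *Gm26897* beside *Miat* and *Tmem182* beside *Pantr1* were not tested. *Frmd8*, which ends 4223 bases from *Neat1*, had 18.4 ± 1.05 CPM (SD, n = 5) in control and log2 fold changes of -0.16 in the *Mphosph8* knockout and -0.37 in the *Morc2a* knockout (edgeR adjusted p = 0.997 and 0.761). *Ralgapb*, beside *Snhg11*, had -0.22 and 0.20 (adjusted p = 0.945 and 0.691), and *Msra* and *Kif13b*, on either side of *Mir124a-1hg*, -0.25 and 0.02 in the *Mphosph8* knockout and -0.04 and 0.25 in the *Morc2a* knockout.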

How the data were processed

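Poly(A) RNA of sorted NeuN-positive nuclei was sequenced by the authors as single 50-base reads, trimmed with Trim Galore 0.5.0, cleared of abundant sequences with Bowtie2 2.3.4.1, aligned to GRCm38 with STAR and Ensembl release 94, and assigned to genes with featureCounts (Subread 1.6.2). Deposited by the authors were raw read counts per gene. The strand setting is not given in the sources used here. Symbols, exons and positions came from GENCODE M21 (54495 of 54532 identifiers matched).

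Counts were fitted with edgeR 4.0.16 in R 4.3.3 (filterByExpr, TMM, quasi-likelihood test, Benjamini-Hochberg adjustment over 18573 genes), each knockout against all 5 controls in a fit of 3 groups, and lines and the difference between knockout effects in a fit of 4 groups. Calls needed an adjusted p below 0.05 and a fold above 2. The test was checked on simulated data. Alternatives were DESeq2 1.42.0, limma-voom (limma 3.58.1), other scalings, filters and controls, and each library left out. Replicates differed by more than counting error (chi-square per degree of freedom 8.17 to 31.3 over 14 pairs). The labels do not state that each library is a different mouse, so p-values measure the spread between these libraries.

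The 7 genes and all lists were chosen with earlier results of these data known. Named besides them were targeted genes and *Rbfox3*, adjacent protein-coding genes, the 3 closest correlates, and of each list called genes or up to 4 of the most abundant. Some of these are not reported here. *Pask*, *Meg3*, *Gm26953*, *Gm27544* and *Mir135a-2* were named after their values were seen.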

Additional observations from a re-analysis of the deposited data

Results flagged for a closer look

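*Rmst* in control replicate 5 had 45.8 CPM, farther from the other 4 controls than Dixon's criterion allows for 5 libraries: its gap to the next control was 0.734 of the range, against a critical value of 0.71. Of the 7 control groups examined this was 1, and chance gives about 1 flag in 20 groups. Without this library the log2 fold change of *Rmst* in the *Mphosph8* knockout was 0.60.

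*Malat1* had every *Mphosph8* knockout library below its own-line controls and every *Morc2a* knockout library above its own, as the libraries are labelled. The difference between the effects was -0.58 on the log2 scale and was not called (edgeR adjusted p = 0.419, 0.118 by DESeq2 and 0.118 to 0.721 over its alternatives). It includes the gap of -0.18 between the controls of the *Morc2a* and *Mphosph8* lines.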

How the results depend on the processing

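Of the 7 lncRNAs, 0 were called in each of the 4 comparisons under all alternatives run, 20 for each knockout and 17 for the other 2 comparisons. Of 518 recomputed log2 fold changes, 505 kept their direction and their side of the threshold. The other 13 changed sign, and the cause was not tested. With own-line controls, *Rmst* (-0.0937) and *Pantr1* (-0.038) in the *Morc2a* knockout did, and with limma-voom *Miat* between the lines (0.00858). With 1 library left out, the ranges were -0.0301 to 0.0762 for *Snhg11* in the *Mphosph8* knockout, -0.02 to 0.462 for *Pantr1* in the *Morc2a* knockout, -0.00433 to 0.287 for *Snhg11* and -0.181 to 0.151 for *Miat* between the lines, and -0.286 to 0.215 for *Pantr1* in the difference between knockout effects.

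Counts of all called genes moved more. In the *Mphosph8* knockout, 18 became 87 without a filter, 54 with DESeq2, 10 with own-line controls and 6 to 21 with 1 library left out. In the *Morc2a* knockout, 11 became 98 without a filter, 24 with at least 10 counts in every library, 69 with DESeq2, 6 in a fit of both groups alone and 3 to 26 with 1 library left out. Between the lines, 24 became 154 without a filter, 101 with DESeq2, 14 with limma-voom and 11 to 46 with 1 library left out. For the difference between knockout effects, 0 became 85 without a filter, 50 with DESeq2 and 0 to 12 with 1 library left out. With the replicate number as a replicate block, 46 genes were called in the *Morc2a* knockout. The numbers share no origin in the labels, and residuals of libraries with the same number correlated between -0.03 and 0.05, so they were not taken as pairs. The *Morc2a* knockouts share their numbers with controls of the other line, so this check cannot show pairs within the *Morc2a* line. The paper states that littermates were used, and pairs of littermates within a line were not tested. The block was not run for the lines or the difference, which share too few numbers.

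The 2 *Morc2a* knockout libraries, and counts of 75 to 503 for *Neat1*, *Rmst* and *Pantr1*, set wide intervals. With 1 library left out, the log2 fold change of *Neat1* in the *Mphosph8* knockout ranged from 0.18 to 0.93 and that of *Rmst* from 0.29 to 0.60.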
